A study of Mus musculus with 22 samples.

Results

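The genes described here encode parts of the NADPH oxidases and of the dual oxidase of the mouse colon: Duox2, Duoxa2, Nox1, Noxo1, Noxa1, Cyba, Cybb, Ncf1 and Ncf4. They were found by gene symbol in the table of read counts, where they are 9 of 46078 genes, by a rule that names genes and uses no measured value, although they were proposed with earlier results of these data known. Poly(A) RNA of distal colon was sequenced in 22 libraries, 1 per mouse. The study compared a spontaneous colitis model, with and without prolapse, with C57BL/6 mice. The C57BL/6 group held 8 wild type control mice (4 males, 4 females) aged 14 weeks. The Winnie group held 7 mice (3 males, 4 females) aged 14 weeks, and the Winnie-Prolapse group held 7 mice (4 males, 3 females) aged 18 weeks. Winnie mice carry a mutation in Muc2, the gene of the main secreted mucin of goblet cells, and develop colitis with no inducing agent, and this mutation is shared by both Winnie groups. Prolapse and the older age go together, so their parts in any difference from the other groups cannot be told apart.

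NADPH oxidases are membrane enzymes that take electrons from NADPH and pass them to oxygen, which gives superoxide or hydrogen peroxide. In the colon, Duox2 with its maturation factor Duoxa2 and Nox1 with its organiser Noxo1 and its activator Noxa1 are known from epithelial cells, where they release oxidants towards the microbes at the mucosal surface. In phagocytes, the catalytic subunit is Nox2, encoded by Cybb, and it works with p47phox (Ncf1), p40phox (Ncf4) and other cytosolic subunits. Cyba encodes p22phox, a membrane partner needed by both Nox1 and Nox2.

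Levels are given as CPM, the read counts scaled to the same total in every library. The library totals ranged from 24817527 to 36344372 counts. Changes are log2 fold changes ± SE, with Benjamini-Hochberg adjusted p-values of edgeR's quasi-likelihood test over all genes that passed its low-count filter. The SE was derived from that test, as the absolute log2 fold change divided by the square root of its F statistic. Epithelial markers summed to 7678 to 13238 CPM over all libraries. Smooth muscle markers were present in all libraries and differed by group, at 6845 to 12390 CPM in C57BL/6, 2045 to 7540 CPM in Winnie and 1370 to 3273 CPM in Winnie-Prolapse. Some libraries stood apart. C57BL/6 replicate 7 had the lowest macrophage and monocyte marker sum (93.4 CPM) and the lowest B cell marker sum (3.12 CPM) of all libraries. Its neutrophil marker sum was 4.27 CPM, against 243 to 359 CPM in the other C57BL/6 libraries, a gap made by Ly6g, since the other 8 markers summed to 0.471 CPM against 0.854 to 3.39 CPM. C57BL/6 replicate 5 had the highest B cell marker sum, 204 CPM. Winnie replicate 5 had the lowest macrophage and monocyte marker sum of its group, 141 CPM, within the C57BL/6 range. In Winnie-Prolapse replicate 6, 18.0% of counts came from milk protein genes, against at most 0.00542% in the other libraries.

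At an adjusted p under 0.05 and a change of at least 1.5-fold, the transcripts of the epithelial catalytic subunits Duox2 and Nox1 and of Duoxa2 were higher in Winnie than in C57BL/6 mice, and those of the Nox1 partners Noxo1 and Noxa1 differed by less than 1.5-fold. Of all genes tested, 7.42% were higher at these limits. At the same limits, Duox2, Duoxa2, Nox1, Cyba and the phagocyte genes Cybb, Ncf1 and Ncf4 were higher in Winnie-Prolapse than in C57BL/6 mice, as were 16.7% of all genes. From here on, genes count as called at an adjusted p under 0.001 with a change of at least 1.5-fold, the limits used by the study. At these limits, 0 of 9 genes were called in Winnie against C57BL/6 by edgeR (0.0925% of all genes tested in either direction and 0.0868% higher). Of them, 6 of 9 had an unadjusted p under 0.05, as had 39.9% of all genes. DESeq2 and edgeR's likelihood ratio test each called 2, Duoxa2 and Nox1, both higher, beside 3.92% and 3.67% of all genes higher, and limma-voom called 0 members and 0% of all genes. In Winnie-Prolapse against C57BL/6, 5 of 9 were called, all higher (18.3% of all genes tested in either direction, 9.84% higher and 8.47% lower). In Winnie-Prolapse against Winnie, 0 of 9 were called by edgeR (0% of all genes tested), with 5 of 9 at an unadjusted p under 0.05, beside 27.8% of all genes. DESeq2 called 1, Cyba, which was higher, beside 2.58% of all genes higher. The likelihood ratio test and limma-voom called 0 members, beside 2.25% and 0% of all genes.

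At the looser limits of an adjusted p under 0.05 and 1.5-fold, 3 of 9 genes were higher in Winnie than in C57BL/6, where 7.42% of all genes were higher, 8.53% lower and 15.9% either. In Winnie-Prolapse against C57BL/6, 7 of 9 were higher, where 16.7% of all genes were higher, 17.7% lower and 34.4% either. In Winnie-Prolapse against Winnie, 3 of 9 were higher, where 4.27% of all genes were higher, 2.72% lower and 6.99% either. Of the 9 genes, 0 were lower in any comparison at either limit. The median log2 fold change of the 9 genes was 0.47, 1.51 and 0.64 in these comparisons, beside -0.01, -0.01 and 0.01 over all genes tested. The 2 comparisons against C57BL/6 share their control libraries. In bulk tissue such as this, a larger number of cells of a type and more RNA per cell cannot be told apart.

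**Figure D1:**
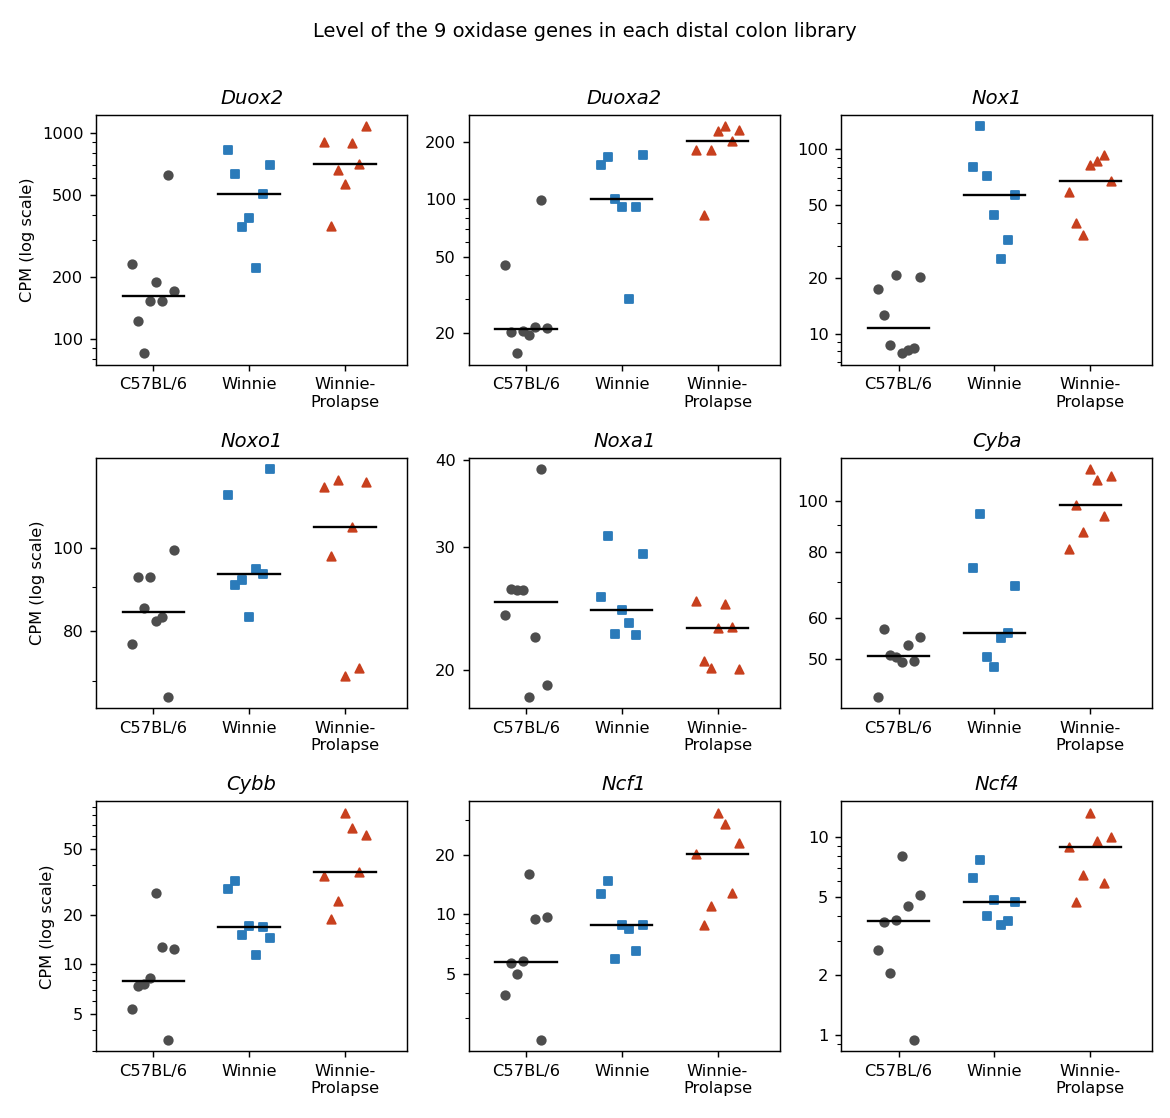
Level of each of the 9 genes in every library, in CPM on a log axis, with 1 symbol per mouse and a line at the group median. Nox1 separates both Winnie groups from C57BL/6 and Cyba separates Winnie-Prolapse from C57BL/6, while the single high C57BL/6 symbol for Duox2 and Duoxa2 is replicate 7.

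**Figure D2:**
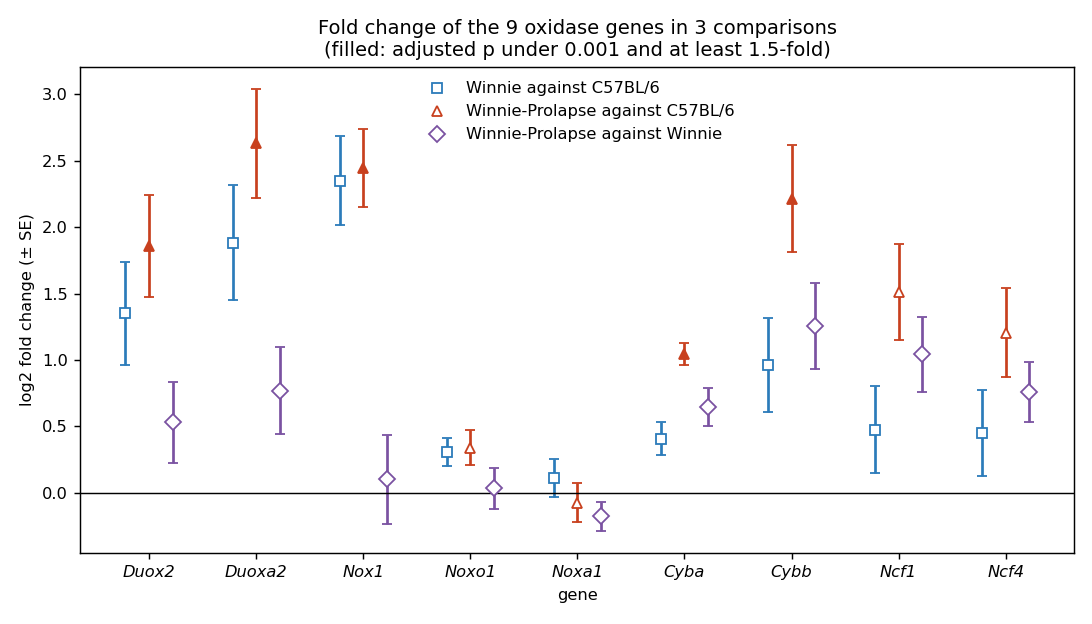
Log2 fold change (± SE) of each gene in the comparisons of Winnie with C57BL/6, Winnie-Prolapse with C57BL/6 and Winnie-Prolapse with Winnie, with filled symbols where a gene was called. In each comparison against C57BL/6 the largest values are those of Duoxa2 and Nox1, and all filled symbols belong to Winnie-Prolapse against C57BL/6.

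Duox2 and Duoxa2 lie head to head on chromosome 2. Duox2 (ENSMUSG00000068452; GRCm38, 2, 122279247 to 122298449, minus strand) encodes the dual oxidase that releases hydrogen peroxide, and Duoxa2 (2, 122298900 to 122302885, plus strand) encodes the protein that carries it to the cell surface. Their annotated ends are 450 bases apart. The window of 250 bases before the Duoxa2 start falls in this gap, and it is shown because both genes rose together and are divided by it. It is RefSeq sequence of GRCm38.p6, chr2:122298650-122298899, plus strand, with a TATA box (TATAAA, searched on both strands) at positions -30 to -25 in capitals.
Duoxa2: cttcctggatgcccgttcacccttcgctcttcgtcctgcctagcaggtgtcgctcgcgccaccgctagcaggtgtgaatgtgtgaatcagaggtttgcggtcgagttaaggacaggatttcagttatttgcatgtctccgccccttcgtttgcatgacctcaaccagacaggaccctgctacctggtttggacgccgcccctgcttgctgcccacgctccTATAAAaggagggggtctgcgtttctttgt
TATAAA was found in 12.4% of 32817 such windows and in 1 of the 8 member windows in the table, that of Duoxa2.

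Duox2 ranged from 84.7 to 624 CPM in C57BL/6 (median 161), from 219 to 823 CPM in Winnie (median 501) and from 354 to 1078 CPM in Winnie-Prolapse (median 704). The C57BL/6 maximum was replicate 7, and the next highest C57BL/6 library had 230 CPM, below every Winnie-Prolapse library but above the lowest Winnie library. When compared to C57BL/6 mice, the log2 fold change was 1.35 ± 0.39 in Winnie (adjusted p = 0.0202). In Winnie-Prolapse it was 1.86 ± 0.38 (adjusted p = 0.000875). This call rested close to its limit, and it was lost in 12 of 15 fits that each left out 1 library, with adjusted p up to 0.00213. It was kept without C57BL/6 replicate 7 or without Winnie-Prolapse replicate 2 or 4. In Winnie, Duox2 no longer passed 0.05 without Winnie replicate 1 (1.20, adjusted p = 0.0503). Without C57BL/6 replicates 5 and 7, the log2 fold change was 1.85 in Winnie and 2.37 in Winnie-Prolapse (adjusted p = 0.0031 and 2.3e-05). Without replicate 7, the C57BL/6 mean was 157 CPM (SD 46.5, n = 7) in place of 216 CPM (SD 171, n = 8). Duox2 did not pass between Winnie-Prolapse and Winnie (0.53 ± 0.31, adjusted p = 0.277).

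Duoxa2 ranged from 15.6 to 99.5 CPM in C57BL/6 (median 20.8), from 29.9 to 170 CPM in Winnie (median 101) and from 83.1 to 242 CPM in Winnie-Prolapse (median 202). Of the 7 Winnie-Prolapse libraries, 6 were above every C57BL/6 library, and 6 were above every Winnie library. Against C57BL/6 mice, Duoxa2 changed on the log2 scale by 1.88 ± 0.43 in Winnie and by 2.63 ± 0.41 in Winnie-Prolapse (adjusted p = 0.00826 and 9.08e-05). Duoxa2 was called in Winnie-Prolapse in 15 of 15 fits that left out 1 library. Against Winnie the value was 0.77 ± 0.33 (adjusted p = 0.144). Duoxa2 shares 695 bases with Duoxa1 on the other strand, and Duoxa1 reached at most 5.92 CPM in any library.

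The ratio of Duoxa2 to Duox2 also moved. On the log2 scale of CPM, its mean was -2.75 in C57BL/6 mice (SD 0.31, n = 8), -2.23 in Winnie mice (SD 0.38, n = 7) and -1.93 in Winnie-Prolapse mice (SD 0.33, n = 7). When compared to C57BL/6 mice, Duoxa2 rose more than Duox2 by 0.53 in Winnie and by 0.83 in Winnie-Prolapse (two-sided exact permutation test, adjusted p = 0.0208 and 0.000932 over 24 ratio tests). C57BL/6 replicate 7, the library highest for both genes, lay within its group for this ratio.

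Nox1 (ENSMUSG00000031257; GRCm38, X, 134086421 to 134221956, minus strand) encodes the superoxide-forming oxidase of the colon epithelium. Its annotated span overlaps Arl13a and Cstf2 on the other strand and Xkrx on its own. The 250 bases before the RefSeq start of Nox1 are shown as those of the gene with the most complete separation between the groups. They lie at chrX:134111855-134112104, GRCm38.p6, minus strand, inside the wider GENCODE span. Capitals mark a match to the NF-kB site at -91 to -82 and to the PU.1 site GAGGAAG at -23 to -17, each searched on both strands.
Nox1: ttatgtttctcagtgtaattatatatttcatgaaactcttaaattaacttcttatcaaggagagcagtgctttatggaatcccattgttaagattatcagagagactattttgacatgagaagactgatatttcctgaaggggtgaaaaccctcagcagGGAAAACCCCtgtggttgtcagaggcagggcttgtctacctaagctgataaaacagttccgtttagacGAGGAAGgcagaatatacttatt
NF-kB site matches were found in 3.9% of all windows, in Nox1 and Noxa1 among the members. The letters GAGGAAG were found in 10.6%, in Nox1 alone among the members, and neither match shows that a factor binds there.

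Nox1 ranged from 7.79 to 20.9 CPM in C57BL/6 (median 10.7), from 25.4 to 134 CPM in Winnie (median 56.7) and from 34.4 to 92.9 CPM in Winnie-Prolapse (median 67.1). All 7 Winnie and all 7 Winnie-Prolapse libraries were above every C57BL/6 library. Such a separation upwards was seen for 0.463% of all genes in Winnie and 6.5% in Winnie-Prolapse, and among the 9 genes for 1 in Winnie and 2 in Winnie-Prolapse. A separation downwards was seen for 1.17% and 9.45% of all genes and for 0 of the 9. Between Winnie-Prolapse and Winnie, 0 of the 9 separated, beside 0.411% of all genes upwards and 0.552% downwards. Against C57BL/6 mice, Nox1 changed by 2.35 ± 0.34 on the log2 scale in Winnie (adjusted p = 0.00124), just short of the limit. It was 2.45 ± 0.29 in Winnie-Prolapse (adjusted p = 9.4e-06). Without Winnie replicate 5, the lowest Winnie library for Nox1, the change in Winnie was 2.49 (adjusted p = 0.000134) and past the limit. With sex as a covariate it was 2.31 (adjusted p = 0.00084). Between Winnie-Prolapse and Winnie the value was 0.10 ± 0.33 (adjusted p = 0.874), and its sign turned without Winnie replicate 5 or 6 or without Winnie-Prolapse replicate 6.

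Noxo1 (GRCm38, 17, 24696234 to 24700529, plus strand), which organises the Nox1 complex, ranged from 67.0 to 99.6 CPM in C57BL/6, 83.2 to 124 CPM in Winnie and 70.9 to 120 CPM in Winnie-Prolapse. Against C57BL/6 mice, Noxo1 changed on the log2 scale by 0.31 ± 0.11 in Winnie and by 0.34 ± 0.13 in Winnie-Prolapse (adjusted p = 0.0417 and 0.0392), under 1.5-fold in both. Noxa1 (2, 25085667 to 25095149, minus strand), which activates Nox1, ranged from 18.3 to 38.8 CPM in C57BL/6, 22.4 to 31.1 CPM in Winnie and 20.1 to 25.2 CPM in Winnie-Prolapse. The groups overlapped for both genes. The log2 fold change of Noxa1 was 0.11 ± 0.14 in Winnie (adjusted p = 0.591) and -0.08 ± 0.15 in Winnie-Prolapse (adjusted p = 0.686), and without C57BL/6 replicate 7 the latter was 0.05. Noxo1 overlaps Tbl3, and Noxa1 overlaps Entpd8, each on the other strand.

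The ratios of both partners to Nox1 were lower in both Winnie groups. The mean log2 ratio of Noxo1 to Nox1 was 2.81 in C57BL/6 mice (SD 0.54, n = 8), 0.83 in Winnie mice (SD 0.81, n = 7) and 0.67 in Winnie-Prolapse mice (SD 0.80, n = 7). No library of either Winnie group reached the lowest C57BL/6 library, whose ratio was 2.14. The difference from C57BL/6 was -1.98 in Winnie and -2.14 in Winnie-Prolapse (two-sided exact permutation test, adjusted p = 0.000932 for each). For Noxa1 to Nox1 the differences were -2.14 and -2.50 (same test, adjusted p = 0.000932 for each). For Cyba to Nox1 they were -1.90 and -1.41 (adjusted p = 0.000932 and 0.0058). The ratios of Noxo1, Noxa1 and Cyba to Nox1 did not pass between Winnie-Prolapse and Winnie (differences -0.16, -0.35 and 0.49, adjusted p = 0.737, 0.313 and 0.163).

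**Figure D3:**
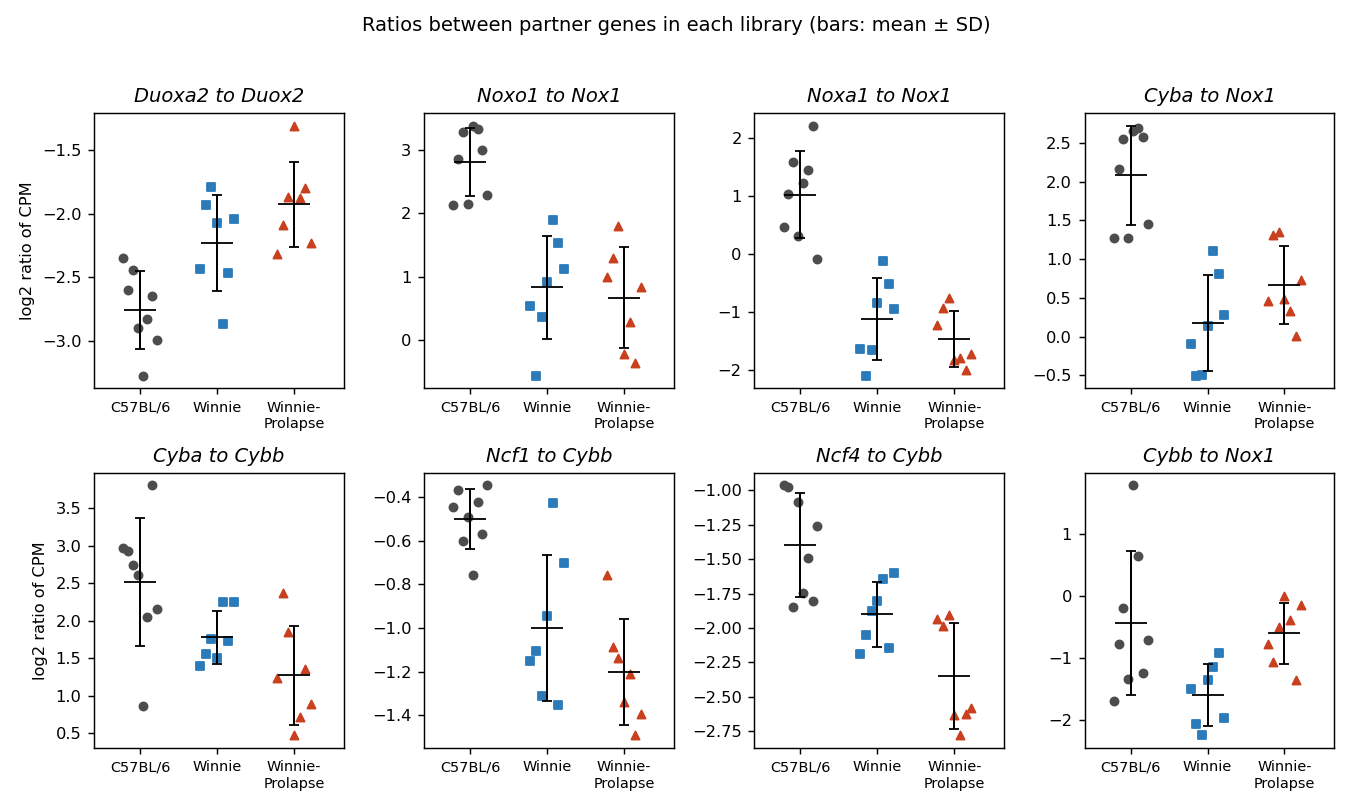
Log2 ratio of CPM between partner genes in each library, by group, with the mean ± SD as black bars. The ratios of Noxo1 and Noxa1 to Nox1 are lower in all Winnie and Winnie-Prolapse libraries than in the C57BL/6 mean of 2.81 and 1.02, and Ncf4 falls relative to Cybb from C57BL/6 to Winnie-Prolapse.

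Cyba (ENSMUSG00000006519; GRCm38, 8, 122424776 to 122432930, minus strand), the partner of both Nox1 and Nox2, ranged from 42.4 to 56.99 CPM in C57BL/6 (median 50.8), from 48.3 to 94.6 CPM in Winnie (median 56.0) and from 81.0 to 115 CPM in Winnie-Prolapse (median 98.3). All 7 Winnie-Prolapse libraries were above every C57BL/6 library, and 3 of the 7 Winnie libraries were. Winnie-Prolapse mice differed from C57BL/6 by 1.05 ± 0.08 (adjusted p = 2.36e-07). It was 0.41 ± 0.12 in Winnie (adjusted p = 0.0265), under 1.5-fold. Cyba had the smallest standard error of the 9 genes in Winnie-Prolapse against C57BL/6, and it was called there in 15 of 15 fits that left out 1 library. Between Winnie-Prolapse and Winnie the value was 0.64 ± 0.14 (adjusted p = 0.0205), and 0.58 without Winnie replicate 3, which is under 1.5-fold. Cyba overlaps Gm20388 on the other strand.

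Cybb (ENSMUSG00000015340; GRCm38, X, 9435252 to 9487771, minus strand), the catalytic subunit of phagocytes, was the least abundant of the 3 catalytic genes per kb of exon in each group. The 250 bases before its RefSeq start and before that of Ncf1 are shown because both carry matches to the interferon-stimulated response element (GAAA, any 2 bases, GAAA, searched on both strands), which was found in 2.97% of all windows. Cybb lies at chrX:9469325-9469574 and Ncf1 at chr5:134229626-134229875, both GRCm38.p6, minus strand, with matches on either strand in capitals. In Ncf1 the capitals join a STAT site match (TTCNNNGAA, in 7.01% of all windows) at -88 to -80 and the element at -82 to -73, which overlap.
Cybb: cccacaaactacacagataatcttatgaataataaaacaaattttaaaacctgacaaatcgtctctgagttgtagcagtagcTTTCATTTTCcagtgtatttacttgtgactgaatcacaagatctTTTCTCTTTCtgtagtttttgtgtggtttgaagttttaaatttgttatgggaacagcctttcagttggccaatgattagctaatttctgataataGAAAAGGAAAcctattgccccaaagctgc
Ncf1: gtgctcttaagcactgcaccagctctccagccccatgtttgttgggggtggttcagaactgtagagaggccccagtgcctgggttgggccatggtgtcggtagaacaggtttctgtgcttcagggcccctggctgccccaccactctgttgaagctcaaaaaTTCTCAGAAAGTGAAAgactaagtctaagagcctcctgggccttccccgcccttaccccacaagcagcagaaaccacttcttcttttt
Cybb held the element at -168 to -159, -124 to -115 and -29 to -20. These matches describe letters only, and binding was not measured.

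Cybb ranged from 3.48 to 27.1 CPM in C57BL/6 (median 7.90), from 11.4 to 32.0 CPM in Winnie (median 16.9) and from 18.9 to 82.9 CPM in Winnie-Prolapse (median 36.4). The C57BL/6 maximum was replicate 5, and the next highest had 12.7 CPM. Of the Winnie-Prolapse libraries, 5 of 7 were above every C57BL/6 library. Against C57BL/6 mice, Cybb changed by 2.22 ± 0.40 in Winnie-Prolapse (adjusted p = 0.000312). That call was lost without C57BL/6 replicate 2 (adjusted p = 0.00104). In Winnie it was 0.96 ± 0.36 (adjusted p = 0.0569), and 1.32 without C57BL/6 replicate 5 (adjusted p = 0.00889) or 1.06 without Winnie replicate 5 (adjusted p = 0.034). Between Winnie-Prolapse and Winnie it was 1.26 ± 0.32 (adjusted p = 0.0301), a value past 0.05 in 5 of 14 fits that left out 1 library. Without Winnie replicate 5 it was 1.15 (adjusted p = 0.0635), and without Winnie-Prolapse replicate 6 it was 1.26 (adjusted p = 0.0535).

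Ncf1 (GRCm38, 5, 134220053 to 134229625, minus strand), which carries the other cytosolic subunits to the membrane, had medians of 5.76, 8.82 and 20.2 CPM in C57BL/6, Winnie and Winnie-Prolapse. The ranges were 2.32 to 16.0, 5.98 to 14.8 and 8.86 to 32.7 CPM. Ncf4 (15, 78244801 to 78262580, plus strand), which binds phosphoinositides on the phagosome, had medians of 3.78, 4.72 and 8.91 CPM and ranges of 0.942 to 8.02, 3.61 to 7.69 and 4.72 to 13.3 CPM. For both genes, 4 of 7 Winnie-Prolapse libraries and 0 of 7 Winnie libraries were above every C57BL/6 library. From C57BL/6 to Winnie-Prolapse, the log2 change was 1.51 ± 0.36 for Ncf1 and 1.21 ± 0.34 for Ncf4 (adjusted p = 0.00261 and 0.00694), past 0.05 and not past 0.001. Without C57BL/6 replicates 5 and 7, both passed 0.001 (1.64 and 1.28, adjusted p = 0.00069 and 0.00085). In Winnie against C57BL/6 the values were 0.47 ± 0.33 and 0.45 ± 0.32 (adjusted p = 0.296 and 0.311). In Winnie-Prolapse against Winnie they were 1.04 ± 0.28 and 0.76 ± 0.23 (adjusted p = 0.0366 and 0.0507). Past 0.05 were 5 of 14 fits that left out 1 library for Ncf1 and 3 of 14 for Ncf4. Without Winnie replicate 5 or Winnie-Prolapse replicate 6, Ncf1 did not pass (1.01 and 1.09, adjusted p = 0.0761 and 0.0556). Without C57BL/6 replicate 5 alone, Ncf1 passed 0.001 in Winnie-Prolapse against C57BL/6 (1.79, adjusted p = 0.000588). Ncf1 overlaps Gtf2ird2 on the other strand.

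Within the phagocyte complex, the ratios of the cytosolic subunits to Cybb were lower in both Winnie groups than in C57BL/6. The mean log2 ratio of Ncf1 to Cybb was -0.50 in C57BL/6 mice (SD 0.14, n = 8), -1.0 in Winnie mice (SD 0.34, n = 7) and -1.20 in Winnie-Prolapse mice (SD 0.24, n = 7). The differences from C57BL/6 were -0.50 and -0.70 (two-sided exact permutation test, adjusted p = 0.00783 and 0.000932). For Ncf4 to Cybb they were -0.50 and -0.95 (adjusted p = 0.0208 and 0.000932). Between Winnie-Prolapse and Winnie, Ncf4 to Cybb fell by 0.45 (same exact test, adjusted p = 0.042), which was lost on leaving out any of 8 libraries, 4 of each group, with adjusted p up to 0.0773. Cyba to Cybb fell by 1.25 in Winnie-Prolapse against C57BL/6 (same exact test, adjusted p = 0.0208), and in Winnie the difference was -0.74 (adjusted p = 0.0748, and 0.00699 without C57BL/6 replicate 5). Between Winnie-Prolapse and Winnie, Cyba to Cybb differed by -0.51 (same exact test, adjusted p = 0.131), and by -0.69 without Winnie-Prolapse replicate 2 (adjusted p = 0.0252).

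The ratio of the phagocyte to the epithelial catalytic subunit, Cybb to Nox1, was lowest in Winnie. Its mean log2 value was -0.44 in C57BL/6 mice (SD 1.16, n = 8), -1.60 in Winnie mice (SD 0.50, n = 7) and -0.60 in Winnie-Prolapse mice (SD 0.49, n = 7). It was higher by 0.997 in Winnie-Prolapse than in Winnie (two-sided exact permutation test, adjusted p = 0.0089). It was lower by 1.16 in Winnie than in C57BL/6, that is -1.16 (same exact test, adjusted p = 0.0313), which was lost without Winnie replicate 2, 3 or 7 (adjusted p = 0.0694, 0.0724 and 0.0691). Winnie-Prolapse and C57BL/6 differed by -0.16 (same exact test, adjusted p = 0.749), with a wide spread in C57BL/6. On leaving out 1 library this difference ranged from -0.34 to 0.15, so its sign turned.

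Markers of macrophages and monocytes differed between the groups as well. Their sum ranged from 93.4 to 200 CPM in C57BL/6, from 141 to 397 CPM in Winnie and from 299 to 559 CPM in Winnie-Prolapse. Of the 10 markers, 10 were called higher in Winnie-Prolapse against C57BL/6. In Winnie against C57BL/6, 7 were higher at an adjusted p under 0.05 with 1.5-fold, beside 7.42% of all genes. With counts scaled to these markers, the log2 fold change of Cybb in Winnie-Prolapse was 0.65 (adjusted p = 0.053), that of Ncf1 -0.03, that of Ncf4 -0.32 and that of Cyba -0.53. On that scale the epithelial genes Duox2, Duoxa2 and Nox1 were not called either, at -0.0082, 0.74 and 0.81 (adjusted p = 0.986, 0.119 and 0.00766), and Noxo1 and Noxa1 were called lower, at -1.19 and -1.71, as were 76.1% of all genes. With counts scaled to epithelial markers, of which 0 of 7 were called in any comparison (4, 3 and 0 at an unadjusted p under 0.05, beside 39.9%, 58.5% and 27.8% of all genes), the same 5 genes as without that scaling were called in Winnie-Prolapse against C57BL/6, with Nox1 at 2.30, Duoxa2 at 2.51 and Cybb at 2.04 (adjusted p = 3.2e-05, 4.4e-05 and 0.000801), beside 6.13% of all genes called higher. Neutrophil markers without Ly6g summed to 0.471 to 3.39 CPM in C57BL/6, 1.48 to 125 CPM in Winnie and 67.1 to 1422 CPM in Winnie-Prolapse. The B cell sum ranged from 3.12 to 204, 11.9 to 83.5 and 23.8 to 140 CPM, and 0 of 5 B cell markers were called or had an unadjusted p under 0.05 in any comparison. The C57BL/6 libraries with the highest and lowest Cybb were also those with the highest and lowest B cell sum. Squamous epithelium markers summed to 3.81 to 47.6, 6.23 to 115 and 106 to 2924 CPM, and C57BL/6 replicate 7, the highest of its group for Duox2, Duoxa2 and Noxa1, also had the highest squamous sum of its group, against at most 14.5 CPM in the others. Of the 8 squamous markers, 4 passed the low-count filter in Winnie-Prolapse against C57BL/6 and 3 in Winnie against C57BL/6. A marker that passed it through Winnie-Prolapse alone could only come out higher, so calls of these markers are not counted. Surface colonocyte markers summed to 6873 to 11243, 2932 to 10615 and 1466 to 6798 CPM. The smooth muscle sum had medians of 8511, 3564 and 2278 CPM, with 7 of 7 markers called lower in Winnie-Prolapse against C57BL/6. The T cell sum had medians of 6.04, 14.7 and 23.7 CPM, with 4 of 5 markers called higher there. The goblet cell sum had medians of 12787, 9594 and 5207 CPM, with 2 of 7 markers called higher and 1 lower. In Winnie-Prolapse against C57BL/6, 9.84% of all genes were called higher and 8.47% lower. The part of these cell types in the results was not tested.

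**Figure D4:**
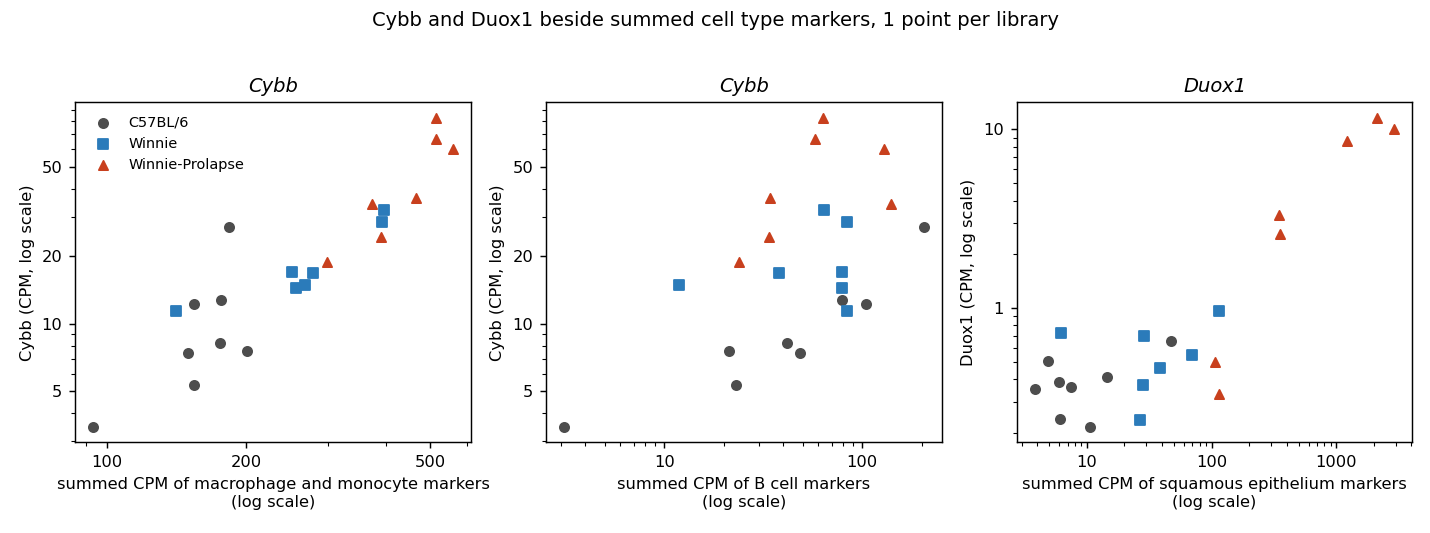
Cybb beside the summed CPM of macrophage and monocyte markers and of B cell markers, and Duox1 beside that of squamous epithelium markers, with 1 symbol per library and log axes. Cybb rises with the macrophage sum over all groups, and Duox1 exceeds 1 CPM in the 5 Winnie-Prolapse libraries whose squamous sum is above 300 CPM.

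Per kb of exon, the order of the 9 genes changed between groups. The length used is that of all annotated exons of a gene merged, not of the transcripts expressed. The order of genes within a group therefore depends on the annotation. In C57BL/6 mice Cyba was highest (49.1 CPM per kb), ahead of Duox2 (31.8), Noxo1 (28.2), Duoxa2 (20.6) and Noxa1 (15.5). Nox1 (3.94) and the phagocyte genes Ncf1 (1.97), Ncf4 (1.91) and Cybb (1.81) formed a lower set, with no C57BL/6 library of Nox1 reaching one of Noxa1. In Winnie mice Duox2 (76.1) and Duoxa2 (71.8) were highest, followed by Cyba (61.6), Noxo1 (32.8), Nox1 (19.2) and Noxa1 (15.8). In Winnie-Prolapse mice Duoxa2 (121), Duox2 (109) and Cyba (95.7) led, and Nox1 (19.97) again lay above Noxa1 (13.9), with overlapping ranges. Neighbours in these orders overlapped in range, except Noxa1 and Nox1 in C57BL/6, Cyba and Noxo1 in both Winnie groups, and Noxa1 and Cybb in Winnie. These are descriptions with no test.

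**Figure D5:**
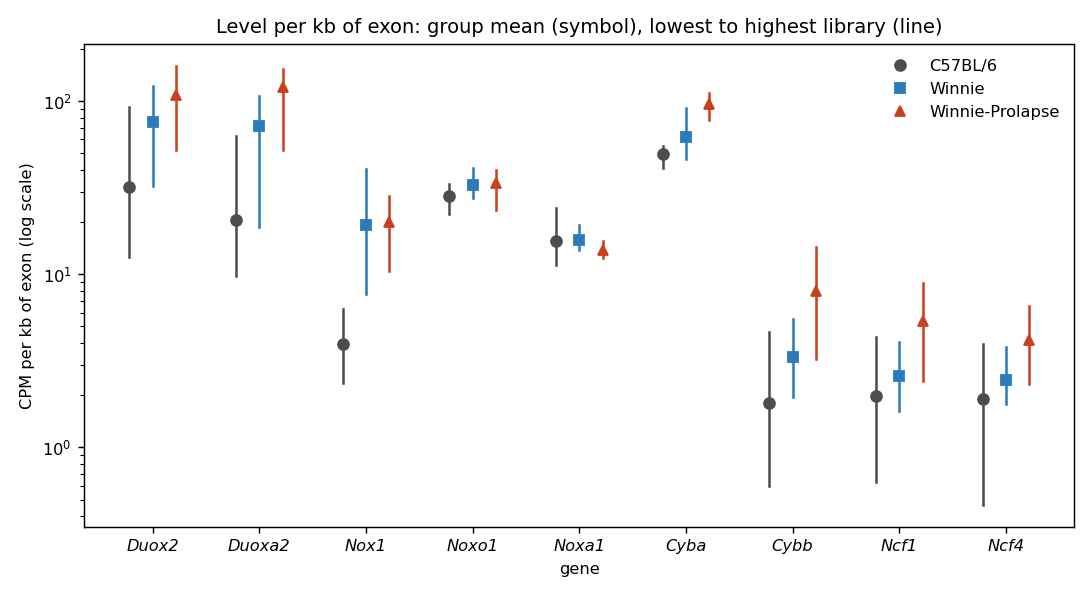
Group mean CPM per kb of exon of each gene (symbol) with the range from the lowest to the highest library (line), on a log axis. Nox1 moves from 3.94 in C57BL/6 to 19.2 and 19.97 in the Winnie groups, while Noxo1 and Noxa1 stay near their C57BL/6 means.

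Levels of 6 pairs of partner genes and 2 pairs of catalytic genes were also followed across mice of the same group. These 24 correlations were taken over 7 or 8 libraries whose cell makeup varied, and all genes of a library share its makeup. In exact permutation tests, 7 had an adjusted p under 0.05 for Pearson's r and 3 for Spearman's rho. Cybb and Ncf1 had r = 0.99 in C57BL/6 (Spearman's rho = 0.95, exact permutation adjusted p = 0.00357 for r and 0.0274 for rho). In Winnie-Prolapse they had r = 0.95 and rho = 0.96 (exact permutation adjusted p = 0.0182 and 0.0333). After leaving out the 2 libraries farthest from the Cybb median, r was 0.99 and 0.89. In Winnie they had r = 0.78 and rho = 0.61 (exact permutation adjusted p = 0.0988 and 0.293), and r was -0.27 without the 2 farthest libraries, so that relation rested on those libraries. Cybb and Ncf4 had r = 0.91, 0.92 and 0.91 in C57BL/6, Winnie and Winnie-Prolapse (exact permutation adjusted p = 0.0182, 0.0245 and 0.0245), with rho of 0.90, 0.86 and 0.86 (exact permutation adjusted p = 0.0365, 0.114 and 0.114). Without the 2 farthest libraries, r was 0.74, 0.48 and 0.75.

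Duox2 and Duoxa2 had r = 0.94 in C57BL/6 and 0.91 in Winnie (exact permutation adjusted p = 0.0182 and 0.0245), with rho of 0.69 and 0.75 (exact permutation adjusted p = 0.211 for each). Without the 2 farthest libraries, r was 0.73 and 0.84. In Winnie-Prolapse r was 0.80 (exact permutation adjusted p = 0.0988) and -0.07 without the 2 farthest libraries, so that relation rested on those libraries. Nox1 and Noxo1 had r = 0.56, 0.15 and -0.56 (exact permutation adjusted p = 0.208, 0.745 and 0.228), and 0.14, 0.48 and -0.75 without the 2 farthest libraries. For Nox1 and Noxa1, r was -0.19, 0.67 and 0.62 (exact permutation adjusted p = 0.730, 0.167 and 0.208), and 0.0005, 0.30 and 0.08 without the 2 farthest libraries. Cybb and Cyba had r = 0.27, 0.77 and 0.72 (exact permutation adjusted p = 0.575, 0.0988 and 0.134). Without the 2 farthest libraries, r was 0.67, -0.24 and 0.87, so the relation in Winnie rested on those libraries. The catalytic genes Nox1 and Cybb, which belong to different complexes, had r = -0.16, 0.81 and 0.79 (exact permutation adjusted p = 0.730, 0.0863 and 0.0988), and -0.42, 0.40 and 0.29 without the 2 farthest libraries. Duox2 and Cybb had r = -0.44, 0.72 and 0.52 (exact permutation adjusted p = 0.327, 0.132 and 0.289). Without the 2 farthest libraries, r was 0.02, 0.36 and -0.18, so its sign turned in C57BL/6 and Winnie-Prolapse. Over all libraries of each Winnie group, r was higher for Nox1 with Cybb than for Nox1 with Noxo1 or Noxa1. Without the 2 farthest libraries this order did not hold in Winnie, where r was 0.48 with Noxo1 and 0.40 with Cybb. These differences were not tested.

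Other genes most like a member were named by the smallest of its within-group r over the 3 groups, among 17768 genes. For Duox2 these were Rnaset2b (0.84), H2-Q10 (0.83) and Eps8 (0.82). For Nox1 they were Cxcl1 (0.74), which encodes a neutrophil-attracting chemokine, Pdia3 (0.74) and Igkv8-30 (0.73). For Cybb they were Mpeg1 (0.94), Havcr2 (0.94) and Lcp2 (0.93). These values describe 22 libraries and carry no test.

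Other oxidase genes were followed in Winnie-Prolapse against C57BL/6. Rac2, the GTPase of the phagocyte oxidase, had 1.52 ± 0.35 in Winnie-Prolapse (adjusted p = 0.0022). Rac1, which serves Nox1 among many partners, had 0.54 ± 0.08 (adjusted p = 4e-05), under 1.5-fold although its ranges did not overlap. Cybc1, a chaperone of the Nox2 core, and Rap1a, which copurifies with it, had 0.00 ± 0.08 each (adjusted p = 0.97 and 0.99). Nox4 reached at most 1.2 CPM and did not pass (0.54 ± 0.45, adjusted p = 0.32). Nox3, the oxidase of the inner ear, had 0 counts in all 22 libraries, which allows up to 0.0825 to 0.121 CPM per library at 3 counts.

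Duox1 and Duoxa1, the other dual oxidase pair, lie beside Duox2 and Duoxa2 on chromosome 2. Duox1 ranged from 0.217 to 0.652 CPM in C57BL/6, from 0.236 to 0.961 CPM in Winnie and from 0.333 to 11.6 CPM in Winnie-Prolapse. From C57BL/6 to Winnie-Prolapse it rose on the log2 scale by 3.76 ± 0.63 (adjusted p = 0.00017). The increase was uneven among mice. Winnie-Prolapse replicates 1 and 3 had 0.503 and 0.333 CPM, within the C57BL/6 range, and replicates 2, 4 and 7 had 11.6, 8.66 and 10.1 CPM. Duoxa1 was left untested by the low-count filter, at 0 to 0.222 CPM in C57BL/6 and 0.148 to 5.92 CPM in Winnie-Prolapse, again with 0.148 and 0.151 CPM in replicates 1 and 3. The squamous epithelium marker sum was 106 and 114 CPM in replicates 1 and 3 and 2130, 1224 and 2924 CPM in replicates 2, 4 and 7. Its part in the Duox1 result was not tested. The level of Duox2 was lowest of its group in replicate 2, at 354 CPM, and highest in replicate 7, at 1078 CPM.

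The oxidases draw on NADPH, and 10 genes of NADPH supply were followed. In Winnie-Prolapse against C57BL/6, their median log2 fold change was 0.57. There, 4 of 10 were called higher and 0 lower, beside 9.84% and 8.47% of all genes. These were G6pdx, the first enzyme of the pentose phosphate pathway (1.02 ± 0.14; adjusted p = 2.75e-05), Pgd (0.88 ± 0.09), Tkt (0.69 ± 0.12) and the mitochondrial folate enzyme Mthfd2 (2.01 ± 0.25). G6pdx and Mthfd2 were named after their values were seen. Taldo1, another enzyme of that pathway, had 0.00 ± 0.18. In Winnie, 0 of 10 were called, beside 0.0925% of all genes. There, 3 (G6pdx, Mthfd2 and Tkt) passed 0.05 with 1.5-fold, beside 15.9% of all genes in either direction. At an unadjusted p under 0.05 were 5 of 10, beside 39.9% of all genes. In Winnie-Prolapse against Winnie, 0 were called, beside 0% of all genes. Mthfd2 alone passed 0.05 with 1.5-fold (0.81 ± 0.22), beside 6.99% of all genes in either direction. At an unadjusted p under 0.05 were 5 of 10, beside 27.8% of all genes.

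Of 19 genes that handle superoxide and peroxide, 5 were called higher and 1 lower in Winnie-Prolapse against C57BL/6 (9.84% and 8.47% of all genes). The median log2 fold change of the 19 was 0.29. Higher were Gpx2, the glutathione peroxidase of gut epithelium, Gsr, Prdx4, Txnrd1 and Sod3, the extracellular superoxide dismutase. Gpx2 had medians of 213, 323 and 624 CPM in C57BL/6, Winnie and Winnie-Prolapse and a log2 fold change of 1.55 ± 0.13 (adjusted p = 4.4e-07). Sod3 had 1.68 ± 0.28. The gene that fell was Sod1, the cytosolic superoxide dismutase, at -0.69 ± 0.12 (adjusted p = 0.00017). Except for Gpx2, these were named after their values were seen. The most abundant, Prdx6, had -1.35 ± 0.38 (adjusted p = 0.0072) and Txn1 had 0.43 ± 0.19 (adjusted p = 0.071), neither past the limit. At an adjusted p under 0.05 and 1.5-fold, 6 of 19 were higher and 3 lower, beside 16.7% and 17.7% of all genes. Prdx6 was among those lower. The summed CPM of the 19 genes had medians of 8270, 6542 and 5132 in C57BL/6, Winnie and Winnie-Prolapse, with overlapping ranges. In Winnie 0 of 19 reached the limits by edgeR, beside 0.0925% of all genes. An unadjusted p under 0.05 was seen for 7 of 19, which does not exceed the 39.9% of all genes. In Winnie-Prolapse against Winnie 0 reached the limits (0% of all genes), with 10 at an unadjusted p under 0.05, beside 27.8% of all genes.

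The peroxidases use hydrogen peroxide to form hypohalous or hypothiocyanous acid. Lpo, lactoperoxidase, was the 1 gene of 3 with enough counts to test. It ranged from 1.54 to 25.1 CPM in C57BL/6, from 7.42 to 25.1 CPM in Winnie and from 18.3 to 100.1 CPM in Winnie-Prolapse, with medians of 3.33, 17.3 and 34.5 CPM. Its log2 fold change was 2.94 ± 0.61 (adjusted p = 0.00087) in Winnie-Prolapse and 1.62 ± 0.53 (adjusted p = 0.036) in Winnie. The highest C57BL/6 library was replicate 7, and the highest Winnie-Prolapse library was replicate 6, the one rich in milk protein transcripts. Without Winnie-Prolapse replicate 6, Lpo changed by 2.46 ± 0.54 (adjusted p = 0.00184), short of the limit. Without C57BL/6 replicate 7 it changed by 3.90 ± 0.40 in Winnie-Prolapse (adjusted p = 2.77e-06) and by 2.55 ± 0.30 in Winnie (adjusted p = 0.000488), and without both libraries by 3.40 ± 0.24 in Winnie-Prolapse (adjusted p = 1.57e-07). Mpo, myeloperoxidase of neutrophil granules, reached at most 0.347 CPM in any library, and Epx, eosinophil peroxidase, at most 0.154 CPM.

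For 12 genes that trigger the phagocyte oxidase, the median log2 fold change in Winnie-Prolapse against C57BL/6 was 1.26. Of these 12, 5 were called higher and 0 lower, beside 9.84% and 8.47% of all genes. The 5 called were the Fc receptor genes Fcer1g (2.15 ± 0.23), Fcgr1 (3.00 ± 0.26) and Fcgr3 (2.44 ± 0.29) and the integrin genes Itgam (3.11 ± 0.34) and Itgb2 (2.60 ± 0.37). All were named after their values were seen. The most abundant genes were kinases. Prkcd had -0.66 ± 0.18 (adjusted p = 0.0065), Syk 0.83 ± 0.23 (adjusted p = 0.0073) and Pak1 0.50 ± 0.09 (adjusted p = 0.00044, under 1.5-fold). In Winnie 0 of 12 were called, beside 0.0925% of all genes, and 7 passed 0.05 with 1.5-fold, beside 15.9% in either direction. At an unadjusted p under 0.05 were 9 of 12, beside 39.9% of all genes. In Winnie-Prolapse against Winnie 0 were called, beside 0% of all genes, and 6 passed 0.05 with 1.5-fold, beside 6.99% in either direction. At an unadjusted p under 0.05 were 8 of 12, beside 27.8% of all genes.

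Of 7 cytokines known to act on oxidase genes, 4 were tested in Winnie-Prolapse against C57BL/6. Il1b and Tnf were called higher and Il18 lower, beside 9.84% and 8.47% of all genes. Il1b had medians of 0.746, 5.94 and 57.4 CPM in C57BL/6, Winnie and Winnie-Prolapse and a log2 fold change of 6.93 ± 0.60 (adjusted p = 4.8e-07). Tnf had medians of 1.99, 7.37 and 24.2 CPM and a log2 fold change of 3.13 ± 0.52 (adjusted p = 0.00015). Ifng, named after its values were seen, had at most 0.0342 CPM in C57BL/6, under the 3-count limit, and 1.39 to 10.2 CPM in Winnie-Prolapse. Ifng passed the low-count filter through Winnie-Prolapse alone, so its test could only come out higher and is not counted. Il18, the most abundant of them, fell by 1.46 on the log2 scale (SE 0.24, adjusted p = 0.00014). In Winnie against C57BL/6, 0 of 3 tested cytokines reached the limits by edgeR, beside 0.0925% of all genes. All 3 had an unadjusted p under 0.05, beside 39.9% of all genes, and Il1b had 3.77 ± 0.66 (adjusted p = 0.0024).

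Nox1 and Cybb lie on the X chromosome, and both sexes were sampled. No member passed the test between males and females (edgeR quasi-likelihood test with group as a covariate, 0 of 9 at an adjusted p or an unadjusted p under 0.05, beside 0.0788% and 4.37% of all genes). The smallest adjusted p for a group change that differed between the sexes was that of Nox1 in Winnie-Prolapse against Winnie, with an interaction of -1.92 ± 0.53 on the log2 scale (edgeR quasi-likelihood test, adjusted p = 0.172). In that comparison Nox1 had 95.2 CPM (SD 34.0, n = 3) in Winnie males and 53.9 CPM (SD 21.8, n = 4) in Winnie-Prolapse males. The Winnie females had 39.5 CPM (SD 13.8, n = 4), and the Winnie-Prolapse females 82.3 CPM (SD 13.5, n = 3). The interaction did not pass the correction over all genes, of which 0.0113% passed in this comparison and 0% in the others. At an unadjusted p under 0.05 were 2 of 9 members here, Nox1 and Cyba, beside 15.9% of all genes. There was 1 of 9 in each comparison against C57BL/6, Cybb in Winnie and Nox1 in Winnie-Prolapse, beside 13.6% and 4.97% of all genes. The mean log2 ratio of Noxo1 to Nox1 in Winnie-Prolapse minus Winnie was 0.86 in males and -1.12 in females, and the difference between the sexes was not tested.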

How the data were processed

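RNA of distal colon from 22 mice was made into stranded poly(A) libraries. The authors ran the RNAsik pipeline, in which reads were aligned to GRCm38 with STAR and counted per gene with featureCounts, and the deposited values are raw read counts. The versions of STAR and featureCounts and the strand setting of the counting are not given in the sources used here, so reads of genes that overlap on the other strand may not be separated. Groups, sexes and ages came from the sample labels, which give 1 more Winnie mouse than the study's text. Which library that concerns is not stated, and all 7 were used. Replicate numbers follow accession order only, no batch is labelled, and no libraries agreed within sampling noise (lowest chi-square per degree of freedom 28.8). The members and the other lists were chosen with earlier results of these data known.

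The counts were tested with edgeR 4.0.16 (filterByExpr, TMM, quasi-likelihood test), fitting the compared groups alone and adjusting over all genes tested. The study's text names edgeR, with the same limits on the adjusted p and the fold change, while the processing notes of the deposited data name limma. The study's exact test and filter are not given in the sources used here. Alternatives were DESeq2 1.42.0, limma 3.58.1 (voom), other edgeR tests, scalings and filters, sex as a covariate, and leaving out each library in turn. Leaving out C57BL/6 replicates 5 and 7 together, removing milk protein genes, and testing Lpo without C57BL/6 replicate 7 or Winnie-Prolapse replicate 6 were chosen after seeing the data. R 4.3.3, Python 3.11.15, numpy 2.4.6 and scipy 1.17.1 were used. Functions were tested on simulated data. Ratios used log2 CPM with a prior count of 2 and exact permutation tests, adjusted over 24 tests, in which 7 against 8 libraries cannot give a p under 0.000155 and 7 against 7 under 0.000583. Gene positions are those of GENCODE M21, to which 149 of 149 listed genes matched by identifier. Promoter windows are RefSeq sequence, with 8 of 9 members in the table; Ncf4 had no entry. Limits for a count of 0 use 3 counts and cover counting error only. All 9 members were named, of each other list the 3 of highest mean CPM, the other oxidase genes (1 of that list is not reported here), and the 3 genes most like Duox2, Nox1 and Cybb. Genes named otherwise are said to be so.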

Additional observations from a re-analysis of the deposited data

Results flagged for a closer look

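Among 27 sets of a member gene in a group, 5 held a library whose gap to its nearest neighbour, as a share of the group's range, passed Dixon's limit (0.526 for 8 libraries, 0.568 for 7). For normally distributed values chance gives about 1 such set in 20, which was not tested for these CPM values, and 3 of the 5 came from 1 library. In C57BL/6 replicate 7, Duox2 was at 624 CPM (gap over range 0.730), Duoxa2 at 99.5 CPM (0.647) and Noxa1 at 38.8 CPM (0.617), each the highest of its group. In C57BL/6 replicate 5, Cybb was highest at 27.1 CPM (0.608). In Winnie-Prolapse replicate 2, Duoxa2 was lowest at 83.1 CPM (0.616), and without it the group mean was 211 CPM (SD 26.3, n = 6). The part of these libraries' cell makeup in these values was not tested.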

How the results depend on the processing

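No paired analysis was possible because replicate numbers only follow accession order. Of 9 members, the 0 called in Winnie against C57BL/6 became 3 at an adjusted p under 0.05, 2 with DESeq2, 2 with the likelihood ratio test, and 1 without a filter, with sex as a covariate or with all 3 groups in one fit. Leaving out 1 library gave 0 to 1. The 5 called in Winnie-Prolapse against C57BL/6 became 2 when scaled to macrophage and monocyte markers, which were Noxo1 and Noxa1, both lower, and 3 to 5 on leaving out 1 library, 3 without C57BL/6 replicate 2. The 0 called in Winnie-Prolapse against Winnie became 3 at 0.05 and 1 with DESeq2, and stayed 0 on leaving out any 1 library. The causes were not tested. The other 104 recomputed counts stayed within 1.5 times.

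Some log2 fold changes turned sign. Scaled to epithelial markers, Noxo1 and Noxa1 in Winnie against C57BL/6 were -0.015 and -0.19. Scaled to macrophage and monocyte markers, that comparison gave Noxo1 -0.51, Noxa1 -0.81, Cyba -0.48, Ncf1 -0.32 and Ncf4 -0.37. Winnie-Prolapse against C57BL/6 gave Duox2 -0.0082, Noxo1 -1.19, Cyba -0.53, Ncf1 -0.029 and Ncf4 -0.32. Winnie-Prolapse against Winnie gave Duox2 -0.12, Nox1 -0.55, Noxo1 -0.69 and Cyba -0.054. On leaving out 1 library, Noxa1 ranged from -0.13 to 0.054 in Winnie-Prolapse against C57BL/6. In Winnie-Prolapse against Winnie, Nox1 ranged from -0.068 to 0.37 and Noxo1 from -0.047 to 0.12. Log2 ratios turned sign too on leaving out 1 library. Cybb to Nox1 ranged from -0.34 to 0.15 in Winnie-Prolapse against C57BL/6, and Noxo1 to Nox1 from -0.40 to 0.013 in Winnie-Prolapse against Winnie. Of the remaining recomputed values of single genes and correlations, 761 kept their direction and side of the threshold, and 26 passed it in addition. A further 17 no longer passed it, of which 12 were Duox2 in Winnie-Prolapse against C57BL/6 on leaving out 1 library. Another 6 values with no threshold moved. Ratio fits that left out 1 library are not part of this tally, and calls they changed are given with the ratios.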
